A study of Mus musculus with 15 samples.

Results

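The cortical libraries numbered 9 to 15 in the sample descriptions (high-numbered) were set against those numbered 1 to 7 (low-numbered), in order to describe genes whose counts followed the library number. Library 8 lies in the middle of the series and was left out, so 14 of the 15 libraries entered the comparison, 7 in each set. The data were total RNA sequencing counts from cortex of wild-type C57BL/6J mice, each taken 3 hours after a single session of repetitive transcranial magnetic stimulation, in which magnetic pulses drive the cortex through the skull. The pulses came in theta-rhythm bursts, either interrupted (intermittent, iTBS) or unbroken (continuous, cTBS), or were a sham, with 5 animals for each. The high-numbered set held 3 iTBS, 2 cTBS and 2 sham libraries, and the low-numbered set held 2 iTBS, 2 cTBS and 3 sham libraries. Stimulation was therefore a term of every model unless stated. The labels do not say what the number stands for, and the order of dissection, extraction, library preparation or sequencing cannot be told apart from it. The sample titles and the series design name the dissected area differently (somatosensory and sensorimotor), so it is called cortex here.

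Depth overlapped between the sets. Total counts averaged 33940000 ± 10510000 in high-numbered libraries and 32290000 ± 9199000 in low-numbered ones (SD, n = 7 each), and single libraries ran from 15385070 to 47807723. Nrgn, a gene of forebrain excitatory neurons, was detected in every library, at 662 to 940.2 CPM (counts scaled to equal library size) in the high-numbered set and 560.0 to 802 CPM in the low-numbered set. Drd1, the dopamine receptor gene of striatal projection neurons, was also detected in every library. Libraries 6, 12 and 15 held the most choroid plexus RNA, with the secreted carrier gene Ttr at 231 to 247 CPM. Ttr was at 64.4 CPM in library 11 and at most 23.1 CPM in the rest. In bulk tissue, fewer cells of a type and less RNA per cell cannot be told apart.

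Immediate early genes are transcribed within minutes of neuronal firing, from promoters that are already poised, and need no new protein. Many encode transcription factors of the Fos, Egr and Nr4a families, which act on a later wave of genes for secreted factors, signalling brakes and synaptic proteins. The kinase pathways that start this response end on the factor CREB at cyclic-AMP response elements (CRE) and on the factor SRF at CArG boxes. In rodents, immediate early genes also respond to handling, novelty, light and arousal.

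The promoters of the 3 immediate early genes with the smallest p-values are shown because these genes lead the comparison. Each window runs from 250 bases before to 50 bases after the transcription start, 5′ to 3′ on the strand of the gene, from RefSeq on build GRCm38.p6. The windows are Fosl2 at chr5:32136222-32136521 on the plus strand, Nr4a3 at chr4:48045055-48045354 on the plus strand and Fosb at chr7:19309996-19310295 on the minus strand. Capitals mark the CRE core TGACG, searched on both strands, and would also mark a CArG box.

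Fosl2: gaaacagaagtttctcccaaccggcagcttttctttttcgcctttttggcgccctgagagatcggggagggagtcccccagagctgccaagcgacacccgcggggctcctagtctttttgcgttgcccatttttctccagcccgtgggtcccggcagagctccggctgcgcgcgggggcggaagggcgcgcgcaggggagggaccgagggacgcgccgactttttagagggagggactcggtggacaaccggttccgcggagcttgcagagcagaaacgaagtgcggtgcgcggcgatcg

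Nr4a3: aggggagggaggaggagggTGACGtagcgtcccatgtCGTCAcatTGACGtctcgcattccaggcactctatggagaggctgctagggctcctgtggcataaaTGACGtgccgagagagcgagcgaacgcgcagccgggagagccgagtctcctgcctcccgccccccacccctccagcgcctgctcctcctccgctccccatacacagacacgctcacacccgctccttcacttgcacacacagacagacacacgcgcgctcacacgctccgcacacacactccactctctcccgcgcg

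Fosb: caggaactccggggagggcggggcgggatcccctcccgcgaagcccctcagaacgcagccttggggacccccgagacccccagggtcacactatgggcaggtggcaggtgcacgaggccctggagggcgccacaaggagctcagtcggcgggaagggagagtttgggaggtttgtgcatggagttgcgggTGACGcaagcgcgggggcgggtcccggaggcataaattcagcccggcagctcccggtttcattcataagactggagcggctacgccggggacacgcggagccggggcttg

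The Nr4a3 window held 4 CRE cores, the Fosb window 1 and the Fosl2 window 0, and no window of the 3 held a CArG box. Promoter windows were found for 21 of 25 immediate early genes, in 31 windows. The CRE core occurred in 23 of these 31 windows (74.2%), against 20.8% of all 32851 windows of the same length. The full palindrome TGACGTCA, within which the core lies, occurred in 9.68% of the immediate early windows and 1.79% of all windows. The CArG box occurred in 4 of the 31 windows, which belonged to 1 gene, against 1.63% of all windows. The core was in 42.9% of 21 windows of late activity-response genes, 31.2% of glucocorticoid-induced windows and 19% of striatal projection neuron windows. The palindrome was in 4 of the 21 late windows (19%). A match describes the letters in the window and does not show binding.

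Immediate early genes had the highest share of nominally different members among the lists of activity and stress genes. Of 25 tested members, 24 had a log2 fold change above 0 (high-numbered over low-numbered libraries), where 42.8% of all 23484 genes tested did. The list's median was 0.39 on the log2 scale, and the median of all genes tested was -0.03. At unadjusted p under 0.05, 20 of 25 members (80%) were higher in the high-numbered set and 0 were lower, against 4.45% of all genes higher and 3.57% lower. After Benjamini-Hochberg adjustment over all genes, 0 members and 0% of all genes passed 0.05 in edgeR's quasi-likelihood test, and the smallest adjusted p of any gene was 0.179. DESeq2, run on the same genes and model, called 8 of the 25 members, all higher, where it called 107 of all 23484 genes tested higher (0.456%). DESeq2 gave no adjusted p to 8653 of the 23484 genes, and these count as not called. The count of 20 was 12 with the level of striatal markers, described further on, as a covariate. It was 15 without the 3 libraries that held the most choroid plexus RNA. Over all genes tested, 628 and 433 were higher in these fits, against 1045 in the fit as reported.

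**Figure D1:**
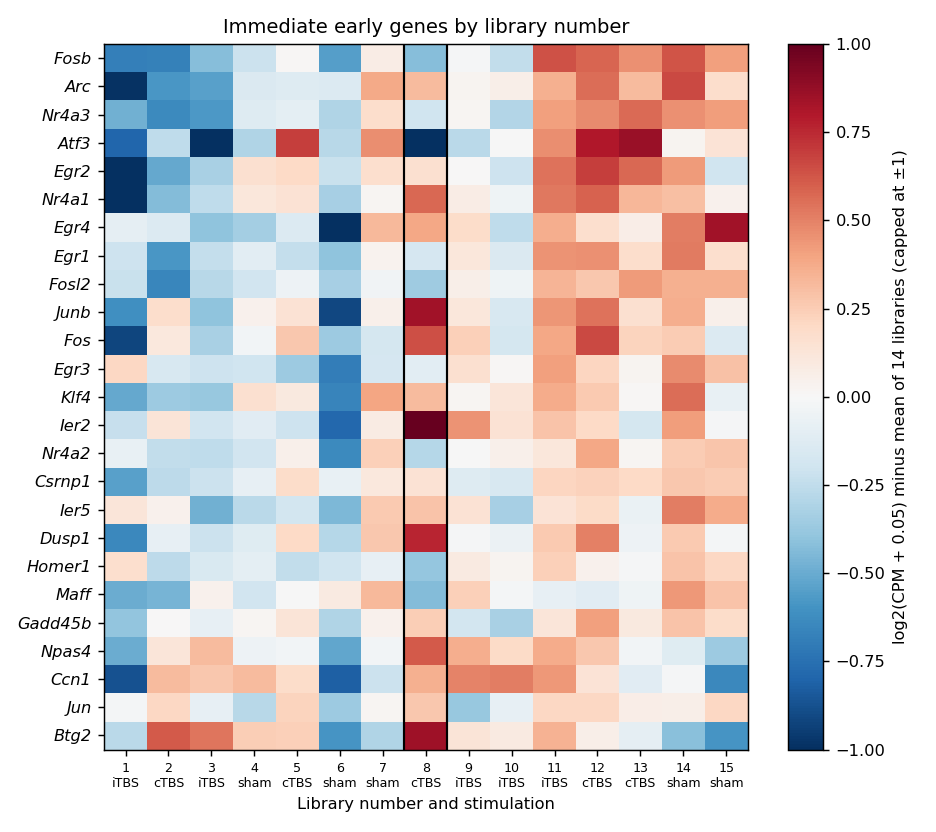
Heat map of the 25 immediate early genes (down the page, by falling log2 fold change) in the 15 libraries (across, by library number, with the stimulation below). Colour gives the difference of log2 CPM from the gene's mean over the 14 compared libraries, capped at 1 in either direction, and most rows are red in libraries 11 to 15 and blue in libraries 1 to 3, with 24 of 25 genes higher on average in the high-numbered set.

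Among genes of the Fos family, which pair with Jun proteins to form the AP-1 factor, Fosl2 ran from 74.6 through a median of 97.2 to 103 CPM in high-numbered libraries and from 48.9 through 66.0 to 74.9 CPM in low-numbered ones. The sets met at the edge only: 6 of 7 high-numbered libraries lay above every low-numbered one. Its log2 fold change was 0.52 ± 0.09 (SE, unadjusted p = 5.96e-05, adjusted p = 0.179). Fosb ran from 22.3 through 36.3 to 41.1 CPM in high-numbered libraries and from 16.5 through 19.7 to 27.9 CPM in low-numbered ones. Its log2 fold change was 0.76 ± 0.14 (SE, unadjusted p = 0.000103, adjusted p = 0.179), and libraries 9 and 10 lay within the range of the low-numbered set. Fos itself averaged 45.8 ± 9.28 CPM in high-numbered and 34.8 ± 8.60 CPM in low-numbered libraries (SD, n = 7 each), with a log2 fold change of 0.43 ± 0.13 (SE). Junb, a Jun family partner, had a log2 fold change of 0.44 ± 0.15. Jun had 0.09 ± 0.09, with averages of 39.1 CPM in high-numbered and 37.0 CPM in low-numbered libraries, and did not pass at unadjusted p under 0.05.

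The Nr4a genes encode orphan nuclear receptors. Nr4a3 ran from 44.2 through a median of 72.6 to 80.1 CPM in high-numbered libraries and from 34.8 through 44.1 to 61.3 CPM in low-numbered ones. The log2 fold change of Nr4a3 was 0.65 ± 0.12 (SE, unadjusted p = 6.06e-05, adjusted p = 0.179), with 5 of 7 high-numbered libraries above every low-numbered one. Nr4a1 averaged 162 ± 27.7 CPM in high-numbered and 115 ± 29.9 CPM in low-numbered libraries, and its log2 fold change was 0.54 ± 0.15.

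Arc, whose protein removes AMPA receptors from the synaptic membrane, was among the most abundant members. It had 390, 399, 489, 564, 475, 606 and 431 CPM in libraries 9 to 15, against 193, 256, 262, 345, 349, 348 and 497 CPM in libraries 1 to 7. Library 7 lay within the high-numbered range, and the other low-numbered libraries lay below all high-numbered ones. The log2 fold change of Arc was 0.69 ± 0.13 (SE, unadjusted p = 0.000153, adjusted p = 0.190). Egr1, a zinc finger factor widely used as an activity marker, ran from 394 through a median of 492 to 625.1 CPM in high-numbered libraries and from 292 through 370 to 446 CPM in low-numbered ones. For Egr1 the log2 fold change was 0.53 ± 0.11 (SE, adjusted p = 0.292), and 6 of 7 high-numbered libraries lay above every low-numbered one. The related Egr3, Egr4 and Egr2 had log2 fold changes of 0.43 ± 0.11, 0.54 ± 0.18 and 0.57 ± 0.20. Homer1, a postsynaptic scaffold gene with an activity-induced short form, averaged 523 ± 42.6 CPM in high-numbered and 441 ± 47.0 CPM in low-numbered libraries (log2 fold change 0.25 ± 0.07).

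The members past unadjusted p under 0.05 did not include Npas4, Jun, Btg2, Maff and Ccn1. Npas4, which responds selectively to calcium entry, had 0.13 ± 0.12, and Btg2, an antiproliferative gene, had -0.25 ± 0.15. Of the list, 0 members had sets that did not overlap, where 0.102% of all genes did so in the higher direction. Within the iTBS libraries the list's median was 0.39, within cTBS libraries 0.27 and within sham libraries 0.33. Arc stood at 0.91 within iTBS, 0.79 within cTBS and 0.39 within sham, while Fosb stood at 0.73, 0.82 and 0.74 and Fosl2 at 0.38, 0.68 and 0.54.

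**Figure D2:**
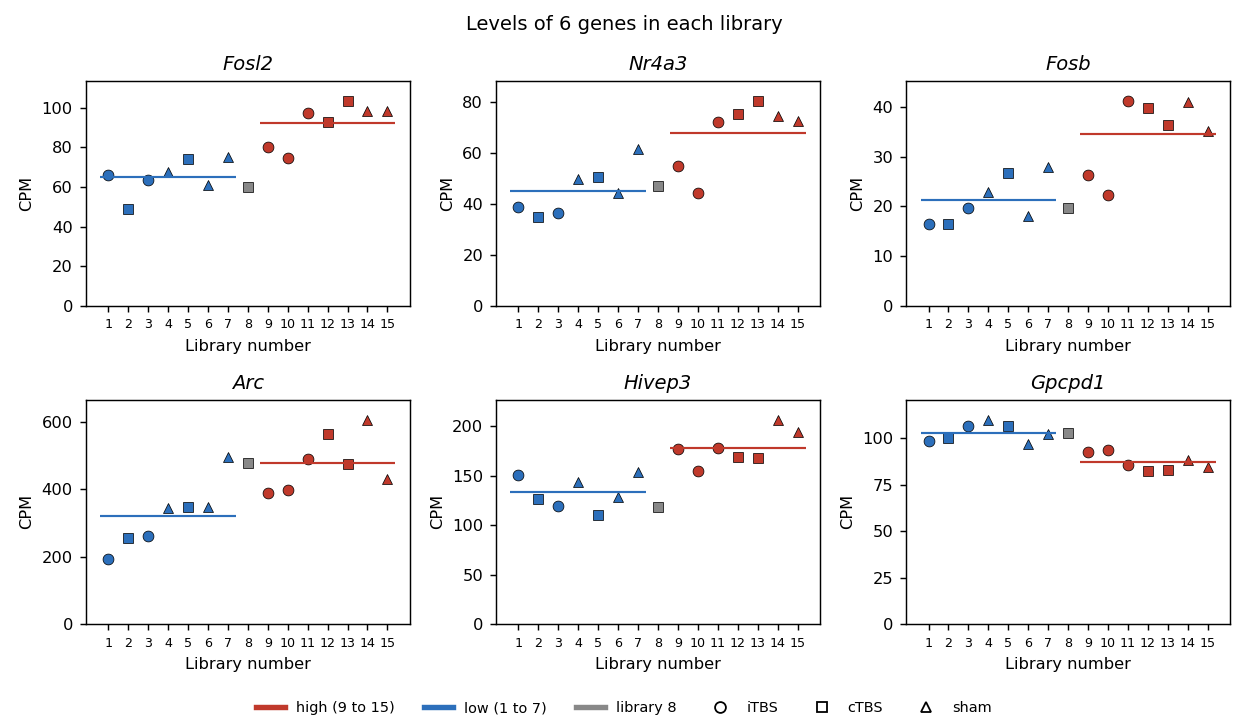
Levels (CPM, linear axes from 0) of 6 genes against library number, with red points for libraries 9 to 15, blue points for libraries 1 to 7, grey for library 8, marker shapes for the stimulation, and lines at each set's mean. Hivep3 and Gpcpd1 have sets that do not overlap, while the sets overlap in the 4 immediate early genes.

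Mean log2 CPM over the immediate early list was 5.13 ± 0.15 in high-numbered libraries and 4.76 ± 0.22 in low-numbered ones (SD, n = 7 each). Library 8, which entered neither set, was at 5.12. For single genes library 8 did not take a middle place: it lay between the set means in 5 of 25 genes, above both in 14 and below both in 6. Fosl2, at 60.1 CPM in library 8, lay below both set means, and Fos, at 61.2 CPM, lay above both.

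Late activity-response genes, which follow the immediate early factors by hours, were also skewed. Of 21 members, 11 (52.4%) were higher at unadjusted p under 0.05, 0 were lower, and the median log2 fold change was 0.21. Of all genes tested, 4.45% were higher and 3.57% lower at that threshold. The leading members of the late list brake the MAP kinase pathway. Dusp5, a nuclear ERK phosphatase gene, ran from 11.5 through a median of 16.6 to 23.6 CPM in high-numbered libraries and from 8.06 through 11.6 to 16.4 CPM in low-numbered ones (log2 fold change 0.63 ± 0.15, adjusted p = 0.377). Its libraries overlapped, with 5 of 7 high-numbered ones above every low-numbered one. Dusp4 and Dusp6, for related phosphatases, had 0.54 ± 0.13 and 0.28 ± 0.08, and Spry4, an inhibitor of receptor tyrosine kinase signalling, had 0.37 ± 0.09. The related Spry2 and Spred1 had 0.13 ± 0.08 and 0.10 ± 0.08, and did not pass at unadjusted p under 0.05.

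Secreted and synaptic products were among the rest. Bdnf, the neurotrophin gene, averaged 35.6 ± 4.04 CPM in high-numbered and 28.7 ± 3.08 CPM in low-numbered libraries (log2 fold change 0.32 ± 0.08). The neuropeptide precursor Vgf averaged 271 ± 40.8 CPM in high-numbered and 213 ± 41.5 CPM in low-numbered libraries. The synaptic pentraxin gene Nptx2 averaged 55.0 ± 8.90 CPM in high-numbered and 46.1 ± 5.32 CPM in low-numbered libraries. The late list's median was 0.07 within iTBS, 0.14 within cTBS and 0.34 within sham libraries. The count of 11 was 7 without sham 4 and 5 with the striatal level as a covariate. Over all genes tested, 688 and 628 were higher in these fits, against 1045 as reported.

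Glucocorticoids, the adrenal stress hormones, bind a receptor that activates genes such as Fkbp5 and Per1, and their level in blood follows the time of day. Of 24 tested glucocorticoid-induced genes, 23 had a log2 fold change above 0, with a median of 0.18. At unadjusted p under 0.05, 8 (33.3%) were higher and 0 lower. Of all genes tested, 42.8% lay above 0, and 4.45% were higher and 3.57% lower at that threshold. Cdkn1a, a cell cycle inhibitor, had sets that did not overlap, at 18.1 to 26.2 CPM in high-numbered and 15 to 17.3 CPM in low-numbered libraries (log2 fold change 0.40 ± 0.08, adjusted p = 0.190). Of all genes tested, 0.102% had sets apart in this direction. The highest Cdkn1a values were in sham libraries 14 and 15, at 26.2 and 24.8 CPM. Whether its difference varied with stimulation was tested by an edgeR interaction term (unadjusted p = 0.0140, adjusted p = 0.820). Zbtb16, a zinc finger factor strongly induced by the receptor, averaged 98.0 ± 15.4 CPM in high-numbered and 76.7 ± 16.01 CPM in low-numbered libraries (0.37 ± 0.10). Lcn2 had the list's largest log2 fold change, 1.31 ± 0.36, at averages of 0.737 CPM in high-numbered and 0.293 CPM in low-numbered libraries. Per1 had 0.41 ± 0.13. Several other receptor targets lay closer to 0. Tsc22d3 and Klf15 had 0.19 ± 0.07 and 0.15 ± 0.06. Klf9 had 0.14 ± 0.07, Sgk1 0.21 ± 0.17 and Fkbp5, a co-chaperone of the receptor, 0.09 ± 0.07. The last 3 of these did not pass at unadjusted p under 0.05. The count of 8 was 3 without stimulation terms, 4 without sham 4, 4 with the striatal level as a covariate and 5 without cTBS 4. Over all genes tested, 987, 688, 628 and 744 were higher in these fits, against 1045 as reported. The phosphatase gene Dusp1 is also on the immediate early list, and Per1 is also on the clock list.

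Clock genes form the feedback loop in which Arntl and Clock activate the Per and Cry genes, whose proteins then repress them. The median of the 20 tested members was 0.06. Against 4.45% of all genes tested higher and 3.57% lower at unadjusted p under 0.05, 5 members (25%) were higher and 0 lower. The 5 were Nfil3, Bhlhe40, Per1, Per2 and Nr1d1. Bhlhe40, a repressor that neuronal activity also induces, averaged 178 ± 41.0 CPM in high-numbered and 135 ± 16.9 CPM in low-numbered libraries (0.45 ± 0.11). Nfil3, a repressor of D-box genes, averaged 9.41 ± 1.03 CPM in high-numbered and 7.58 ± 0.83 CPM in low-numbered libraries (0.33 ± 0.07, adjusted p = 0.220). Per1 had 131.5, 122, 166, 204, 175, 195 and 170 CPM in libraries 9 to 15, against 82.5, 94.2, 117, 154, 157, 140 and 190 CPM in libraries 1 to 7. The sets overlapped, with low values in libraries 1 to 3 (0.41 ± 0.13). Per2 had 0.30 ± 0.11 and Nr1d1 0.22 ± 0.09. Arntl had 0.12 ± 0.06, and Dbp, an output gene whose mRNA cycles strongly in many tissues, had -0.19 ± 0.20, at 14.1 to 28.0 CPM in high-numbered and 11.8 to 30.5 CPM in low-numbered libraries. Neither Arntl nor Dbp passed at unadjusted p under 0.05.

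Lists of stress genes had smaller medians than the immediate early, late and glucocorticoid-induced lists. For cytosolic heat shock genes the median was 0.11, and 14 of 18 lay above 0. At unadjusted p under 0.05, 7 of 18 were higher, against 4.45% of all genes tested. The chaperone genes Dnajb1 (0.27 ± 0.08) and Hspa1b (0.56 ± 0.18) led them. For endoplasmic reticulum stress genes the median was 0.12, 15 of 18 lay above 0 and 5 were higher at that threshold. Among these were the translation-control factor Atf4 (0.23 ± 0.06) and Creld2 (0.38 ± 0.11). For hypoxia genes the median was 0.09, 12 of 15 lay above 0 and 3 were higher at that threshold. Among these were P4ha1, a collagen prolyl hydroxylase gene (0.20 ± 0.05), and the glycolysis regulator Pfkfb3 (0.24 ± 0.06). The hypoxia median was 0.02 without sham 4. These 3 lists had 0 lower members at unadjusted p under 0.05. Cold-inducible RNA-binding genes lay on the other side: Rbm3 averaged 36.6 ± 5.52 CPM in high-numbered and 44.4 ± 3.82 CPM in low-numbered libraries (-0.27 ± 0.08, unadjusted p = 0.00514, adjusted p = 0.461), and Cirbp averaged 24.8 ± 4.10 CPM in high-numbered and 28.5 ± 4.95 CPM in low-numbered libraries (-0.17 ± 0.08, unadjusted p = 0.0490, adjusted p = 0.619).

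**Figure D3:**
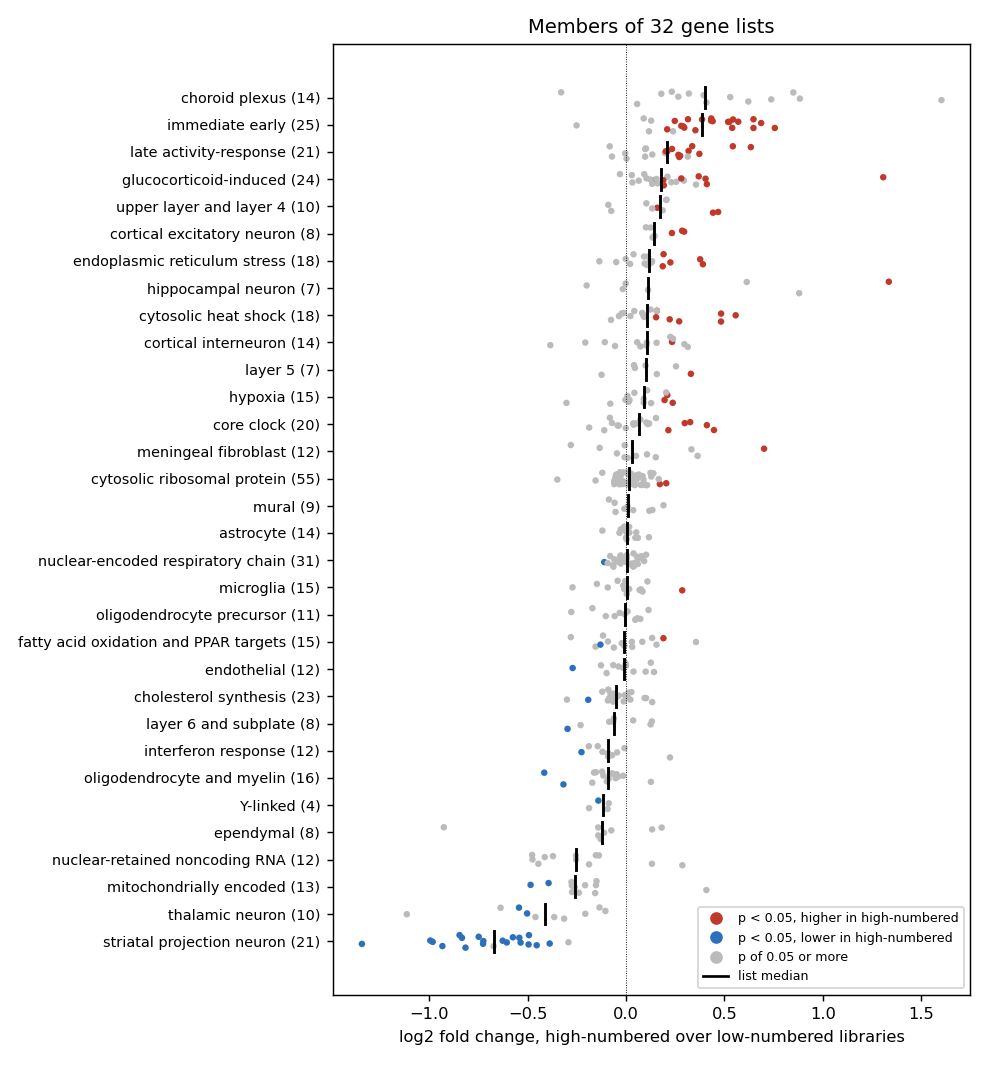
Log2 fold change, high-numbered over low-numbered libraries, of every tested member of the 32 lists with at least 3 tested members, ordered by list median (black bar), with the number of tested members in brackets. Red and blue points are members with unadjusted p under 0.05, higher and lower in high-numbered libraries; immediate early genes hold 20 red points and striatal projection neuron markers 19 blue ones.

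Across all genes, the 10 higher genes with the smallest p and a mean of at least 1 CPM included Hivep3, Fosl2, Nr4a3, Tet3, Fmnl1, Setd1b, Spen, Gm41505 and Fosb, and none passed the adjustment (adjusted p = 0.179 each). Hivep3, a zinc finger transcription factor gene, had 177, 155, 178, 169, 168, 206 and 194.5 CPM in libraries 9 to 15, against 151, 127, 119, 144, 111, 129 and 153.5 CPM in libraries 1 to 7. All high-numbered libraries lay above all low-numbered ones, and the log2 fold change was 0.44 ± 0.07 (SE, unadjusted p = 1.20e-05). Setd1b, a histone methyltransferase, ran from 95.4 to 123 CPM in high-numbered and from 86.0 to 94.6 CPM in low-numbered libraries, also without overlap (0.33 ± 0.06). Tet3, which oxidises methylcytosine, had 0.30 ± 0.05, and the corepressor Spen had 0.31 ± 0.06. Fmnl1, a formin that extends actin filaments, had 0.42 ± 0.08. Gm41505 is annotated as an antisense transcript, and since the strand setting of the counting is not given, its reads cannot be told apart from those of its partner gene (0.29 ± 0.05).

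The 10 lower genes with the smallest p were Cdh9, Oprk1, Gpcpd1, Zc3h6, Gm45871, Hs3st5, Carf, Ngfr, CT030661.1 and Pgap2, with adjusted p between 0.179 and 0.418. Gpcpd1, a phosphodiesterase of choline phospholipid breakdown, had 92.5, 93.6, 85.6, 82.5, 82.9, 88.5 and 84.5 CPM in libraries 9 to 15, against 98.4, 99.99, 106.5, 110, 107, 97.0 and 102.5 CPM in libraries 1 to 7. The sets did not overlap, and the log2 fold change was -0.25 ± 0.05. Oprk1, the kappa opioid receptor gene, averaged 11 ± 1.56 CPM in high-numbered and 14.9 ± 2.45 CPM in low-numbered libraries (-0.46 ± 0.09). Cdh9, a cadherin of specific synapses, averaged 15.7 ± 2.57 CPM in high-numbered and 19.5 ± 2.15 CPM in low-numbered libraries (-0.34 ± 0.06). Hs3st5, a heparan sulfate sulfotransferase, ran from 5.33 to 6.32 CPM in high-numbered and from 6.67 to 9.80 CPM in low-numbered libraries, without overlap (-0.41 ± 0.09). Carf, a calcium-responsive transcription factor, had -0.20 ± 0.04 without overlap, Zc3h6 had -0.28 ± 0.06, Pgap2, of lipid anchor remodelling, had -0.35 ± 0.09, and the unnamed genes Gm45871 and CT030661.1 had -0.37 ± 0.08 and -0.20 ± 0.05. Ngfr, the low-affinity neurotrophin receptor gene, had -0.89 ± 0.21 at levels of 0.702 to 2.20 CPM in high-numbered and 1.15 to 6.73 CPM in low-numbered libraries, with the top value in library 5. Over all genes, 24 had all high-numbered libraries above all low-numbered ones and 13 (0.0554%) the reverse.

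Markers of striatal projection neurons were lower in the high-numbered set on average. All 21 tested members had a log2 fold change below 0, with a median of -0.67, and 19 (90.5%) passed at unadjusted p under 0.05. None passed the adjustment. Of all genes tested, 42.8% had a log2 fold change above 0, and 3.57% were lower at unadjusted p under 0.05. Drd1 had 26.6, 24.0, 41.3, 50.1, 65.6, 20.6 and 24.5 CPM in libraries 9 to 15, against 33.3, 76.3, 70.8, 51.5, 75, 66.2 and 15.9 CPM in libraries 1 to 7. The sets overlapped fully: library 7 had the lowest value of all and library 13 a value near the median of the low-numbered set. Rgs9, which speeds the shut-off of dopamine receptor signals, had -0.99 ± 0.33, and Tac1, the substance P precursor, had -0.75 ± 0.22. Drd2, Adora2a and Penk, of the indirect pathway, had -0.85 ± 0.38, -0.93 ± 0.37 and -0.73 ± 0.29, and Ppp1r1b, a phosphatase inhibitor gene also expressed in cortex, had -0.49 ± 0.19 at averages of 119 ± 41.9 CPM in high-numbered and 162 ± 61.5 CPM in low-numbered libraries. The count of 19 was 1 without iTBS 2 (median -0.47), 9 without sham 5, 11 without sham 2, iTBS 4 or sham 4 and 12 without sham 1. It was 1 without stimulation terms and 2 with library 8 counted as low-numbered. Over all genes tested, 838 were lower as reported, 410 without iTBS 2, 510 without sham 5 and 583 without sham 1. Without sham 2, iTBS 4 and sham 4 in turn, 620, 889 and 822 were lower. The all-gene number was 642 without stimulation terms and 773 with library 8 counted as low-numbered. Library 8 lay below both set means in all 21 members.

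**Figure D4:**
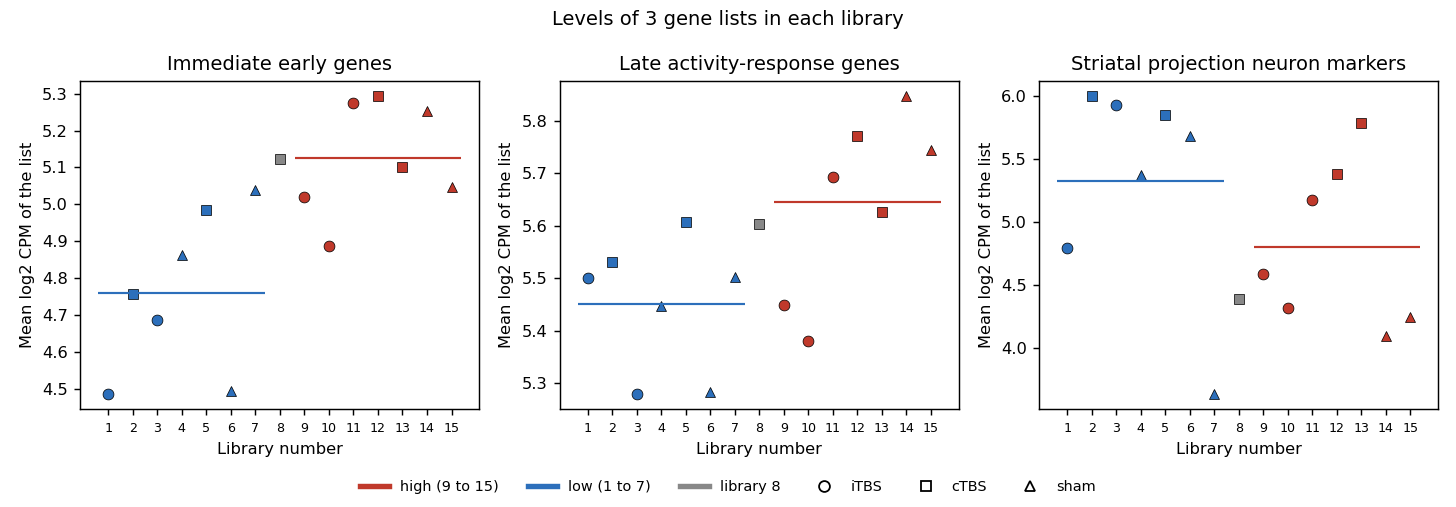
Mean log2 CPM of the immediate early, late activity-response and striatal projection neuron lists against library number, with red points for libraries 9 to 15, blue points for libraries 1 to 7, grey for library 8 and lines at set means; the axes do not start at 0. The immediate early level averaged 5.13 in high-numbered and 4.76 in low-numbered libraries, and the striatal level averaged 4.80 in high-numbered and 5.32 in low-numbered libraries, with wide overlap.

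The striatal level, the mean log2 CPM of its list, was 4.80 ± 0.65 (4.10 to 5.79) in high-numbered and 5.32 ± 0.85 (3.64 to 6.00) in low-numbered libraries (SD, n = 7 each). Its mean was lower in the high-numbered set, where the means of the immediate early and late lists were higher, and its ranges overlapped. A link between these lists was not tested. With the striatal level as a covariate, 12 immediate early genes and 628 of all genes tested were higher at unadjusted p under 0.05. The immediate early median was 0.31. Fosl2, Nr4a3, Fosb and Arc then had log2 fold changes of 0.50, 0.62, 0.74 and 0.63. Libraries 6, 12 and 15 were the 3 with the most choroid plexus RNA. Without them, 15 immediate early genes, 7 late genes, 5 glucocorticoid-induced genes and 1 striatal marker were past that threshold. Over all genes tested, 433 were then higher and 308 lower. The medians of the immediate early and late lists were then 0.34 and 0.14.

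Markers of other regions and of cortical layers had medians nearer to 0. Members are counted as higher or lower at unadjusted p under 0.05, where 4.45% of all genes tested were higher and 3.57% lower. Of all genes tested, 42.8% had a log2 fold change above 0. The median of thalamic markers was -0.41, with 10 of 10 below 0 and 2 lower at unadjusted p under 0.05, Zic1 (-0.50 ± 0.22) and Tnnt1 (-0.54 ± 0.25). The level of this list, its mean log2 CPM, was 2.79 to 3.17 in high-numbered libraries, 2.86 to 3.36 in 6 low-numbered ones and 4.67 in library 6, and the median was -0.13 without library 6 (sham 2). For cortical excitatory neurons the median was 0.14, 8 of 8 markers lay above 0 and 3 were higher, among them Nrgn, which encodes a calmodulin-binding protein (0.23 ± 0.10). For the upper layers and layer 4 it was 0.17, and 3 of 10 were higher, among them the sodium channel gene Scnn1a (0.47 ± 0.12) and the secreted Wnt activator Rspo1 (0.44 ± 0.14). Scnn1a averaged 5.22 ± 0.48 CPM in high-numbered and 3.79 ± 0.61 CPM in low-numbered libraries, and 6 of 7 high-numbered libraries lay above every low-numbered one. The median of layer 5 markers was 0.10 with 1 of 7 higher, layer 6 and subplate markers -0.06 with 1 of 8 lower, interneuron markers 0.10 with 1 of 14 higher and hippocampal markers 0.11 with 1 of 7 higher. Choroid plexus genes had 0.40 and 0 members past the threshold, and that median was 0.87 without sham 2 and 0.08 without sham 5.

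Glial and vascular lists lay near the median of all genes. Higher and lower members are again those at unadjusted p under 0.05, which 4.45% and 3.57% of all genes tested passed. Of all genes tested, 42.8% had a log2 fold change above 0. For oligodendrocytes and myelin the median was -0.09, 15 of 16 genes lay below 0, and 2 were lower at unadjusted p under 0.05: Aspa, the enzyme that splits N-acetylaspartate (-0.42 ± 0.11), and the myelin membrane gene Opalin (-0.32 ± 0.11). Aspa averaged 9.82 ± 1.53 CPM in high-numbered and 12.99 ± 1.79 CPM in low-numbered libraries. Medians were 0.01 for astrocyte, 0.00 for microglia, -0.01 for oligodendrocyte precursor, -0.01 for endothelial, 0.01 for mural and 0.03 for meningeal fibroblast markers, with at most 1 member of a list past the threshold in either direction. Ependymal markers had -0.12, red blood cell genes 0.03 over 2 tested members and Y-linked genes -0.12 with 1 of 4 lower. For cytosolic ribosomal proteins the median was 0.01, and 2 of 55 genes were higher; for the nuclear-encoded respiratory chain it was 0.00, and 1 of 31 was lower. Cholesterol synthesis genes had -0.05 with 1 of 23 lower, interferon response genes -0.09 with 1 of 12 lower, and fatty acid oxidation genes -0.01 with 1 of 15 in each direction.

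For mitochondrially encoded genes the median was -0.26. Against 3.57% of all genes tested, 2 of 13 were lower at unadjusted p under 0.05. Of these, mt-Co3, a cytochrome oxidase subunit, averaged 2927 ± 535.5 CPM in high-numbered and 4117 ± 1621 CPM in low-numbered libraries (-0.48 ± 0.19), and mt-Nd3, a complex I subunit, had -0.39 ± 0.18. In both genes library 2 (cTBS 1) had the top value of the low-numbered set, and the median of the list was -0.14 without it. Both mitochondrial ribosomal RNAs, mt-Rnr1 (-0.54 ± 0.23) and mt-Rnr2 (-0.47 ± 0.21), were lower at the same threshold, in libraries that had been depleted of ribosomal RNA. The share of counts on mitochondrially encoded genes was 2.11 ± 0.45% in high-numbered and 2.56 ± 0.43% in low-numbered libraries (two-sided exact permutation within stimulation groups, p = 0.0967, adjusted p = 0.193 over 4 library measures).

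The share of counts on the 10 genes with the most counts was 5.20 ± 0.54% in high-numbered and 6.05 ± 0.38% in low-numbered libraries (difference -0.874 percentage points, exact permutation p = 0.00833, adjusted p = 0.0333). Total counts (exact permutation p = 0.818) and detected genes, 33580 ± 1120 in high-numbered and 34220 ± 676 in low-numbered libraries (exact permutation p = 0.228, adjusted p = 0.304), did not pass. The 600 assignments allow a smallest p of 0.00167. Nuclear-retained noncoding RNAs, among them Malat1, had a median of -0.25 with 0 of 12 past the threshold, and structured small RNAs -0.26 over 2 tested members. The nuclear-retained median was -0.52 without cTBS 5 and -0.10 without sham 4, and that of structured small RNAs was 0.00 without cTBS 1. The nuclear-retained level was 6.91 ± 0.66 in high-numbered and 7.15 ± 0.58 in low-numbered libraries (mean log2 CPM, SD, n = 7 each).

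GC content moved with the comparison. Over 16696 genes with a mean of at least 1 CPM and a known GC content of the longest transcript, the median log2 fold change was -0.08 in the lowest of 5 equal groups by GC content and 0.05 in the highest. In the lowest group, 1.2% of genes were higher and 8.02% lower at unadjusted p under 0.05, while in the highest group 11.1% were higher and 2.13% lower. Across genes, which are not independent replicates, Pearson's r was 0.264 and Spearman's rho 0.332. The 10 higher genes named had a median GC content of 55.3% and the 10 lower genes 40.7%, against 48.9% for all. Immediate early genes had a median GC content of 54.6% and striatal markers 52.7%. The medians of their log2 fold changes were 0.39 and -0.67. The slope of a library's deviation on GC content was 0.04 ± 0.15 log2 units per 10 percentage points in high-numbered and -0.04 ± 0.14 in low-numbered libraries (SD, n = 7 each). With a GC trend removed from each library, the immediate early median was 0.39, and 19 of 25 were higher at unadjusted p under 0.05. Fosl2 then had 0.51, and Gpcpd1 had -0.05 in place of -0.25. Carf and CT030661.1 then had -0.014 and 0.013, while the other 7 lower genes kept an unadjusted p under 0.05. Over all genes tested, 1047 were higher and 546 lower at unadjusted p under 0.05 with the GC trend removed alone, against 1045 higher and 838 lower without that step. With the GC trend removed and the striatal level as a covariate together, 12 immediate early genes were higher at that threshold. The list's median was 0.35, and over all genes tested 612 were higher and 312 lower.

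**Figure D5:**
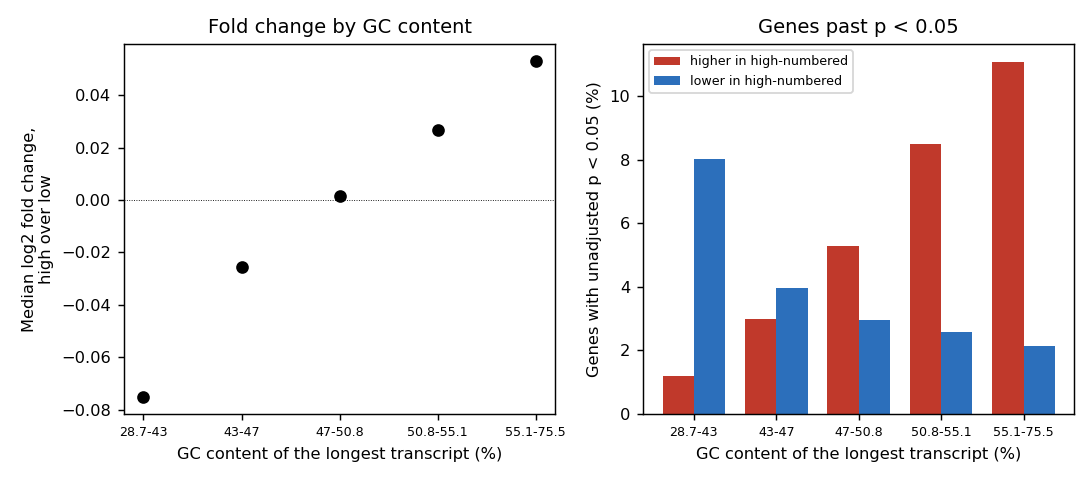
Median log2 fold change, high-numbered over low-numbered libraries (left), and percentage of genes with unadjusted p under 0.05 (right; red higher, blue lower in high-numbered libraries) in 5 equal groups of genes by GC content of the longest transcript (%). The median goes up from -0.08 in the lowest group to 0.05 in the highest, and the share of higher genes from 1.2% to 11.1%.

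Whether the difference between number sets was itself different in iTBS, cTBS and sham libraries was tested by an interaction term. With edgeR, 0 genes passed (smallest adjusted p = 0.820), 907 (3.86%) had an unadjusted p under 0.05, and DESeq2 also called 0. Of the immediate early genes 0 had an unadjusted interaction p under 0.05, and of the late, glucocorticoid-induced and heat shock genes 1 each. In the model that compared the number sets, the stimulation terms, tested together, called 0 genes (smallest adjusted p = 0.271), with 4157 (17.7%) at unadjusted p under 0.05. The number of genes called between the number sets depended on the tool. With edgeR it was 0, with 1883 (8.02%) at unadjusted p under 0.05. With limma-trend on the deposited variance-stabilized values it was also 0 (smallest adjusted p = 0.176). DESeq2 called 124 (0.528%), and limma-voom with sample quality weights called 588 (2.5%). In the same fit limma-voom called 9747 genes for the stimulation terms. In high-numbered libraries DESeq2 called 107 higher (0.456%) and 17 lower (0.0724%), and limma-voom called 402 higher (1.71%) and 186 lower (0.792%). These shares are of all genes tested, 8653 of which had no adjusted p with DESeq2. DESeq2 and limma-voom shared 117 genes, 94.4% of the DESeq2 calls and 19.9% of those of limma-voom. The immediate early genes that DESeq2 called were Fosb, Homer1, Arc, Nr4a1, Nr4a3, Fosl2, Egr3 and Egr1, and 7 of the 8 were also called by limma-voom. For Hivep3 the adjusted p was 2.8e-06 with DESeq2 and 0.00267 with limma-voom, against 0.179 with edgeR.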

How the data were processed

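The authors deposited raw counts by Ensembl gene, not normalized, and variance-stabilized values, on a scale close to log2. The columns carry the library numbers of the labels' descriptions. The tools fastp, STAR and DESeq2 and the mouse build GRCm39 (mm39) are named, per the submitters' processing notes. The sources used here give neither their roles and versions nor the read counter, annotation or strand setting, so overlapping and antisense genes are uncertain. Per the labels' protocols, RNeasy Mini extraction was followed by stranded total RNA libraries with ribosomal RNA removed.

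Counts were tested in edgeR 4.0.16 (R 4.3.3) by its quasi-likelihood F test, with TMM scaling, terms for stimulation and number set, and the default filter, which kept 23484 of the 45315 genes with any count, holding 99.9% of counts. Benjamini-Hochberg adjustment ran over all genes tested, at 0.05. Standard errors are the log2 fold change divided by the square root of F. CPM values used TMM-scaled library sizes over tested genes. For Ttr, this scaling ran over all libraries of the series, not only those compared. The biological coefficient of variation was 20.4%. Library measures were compared by two-sided exact permutation within stimulation groups. The self-test on simulated data used this model. Alternatives used DESeq2 1.42.0 and limma 3.58.1.

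Gene names were matched by Ensembl identifier to a GRCm38 annotation (52073 of 56748), so no coordinates of GRCm39 are given; GC content came from the longest transcript in that annotation and was known for 98.7% of genes with a mean of at least 1 CPM. Of 525 list symbols, 508 were tested. The number sets, gene lists, rules and tests were chosen with earlier results of these data known. Lists are described by counts and medians, without a test.

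Genes were named by a rule: up to 12 genes a direction past the adjusted threshold with a mean of at least 1 CPM and, where fewer than 10 passed, those with the smallest p up to 10; the clock and glucocorticoid-induced lists, in part; the 2 members with the smallest p of each list described; and Cirbp and Rbm3. A few of the genes so chosen are not reported here. Other genes given, among them Arc, Egr1, Fos, Npas4, Homer1, Bdnf, Drd1, Drd2, Adora2a, Penk and Ppp1r1b, were chosen after their values were seen.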

Additional observations from a re-analysis of the deposited data

Results flagged for a closer look

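In 11 of the 170 sets of 7 values checked, a single library lay far from the other 6; chance gives about 1 in 20. In the low-numbered set, library 5 stood apart for Ngfr at 6.73 CPM, against 1.15 to 3.22 CPM in the others, and for Cirbp at 38.8 CPM, against 23.3 to 29.9 CPM. Library 2 stood apart for mt-Co3 at 7671 CPM, against 3137 to 4423 CPM, for mt-Nd3 at 766 CPM, against 342 to 499 CPM, and for Opalin at 24.4 CPM, against 14.1 to 18.4 CPM. Library 6 stood apart for the thalamic markers Zic1 at 29.8 CPM, against 8.23 to 17.2 CPM, and Tnnt1 at 2.65 CPM, against 0.697 to 1.46 CPM. Library 1 had the highest Homer1 value of the low-numbered set at 537 CPM, against 399 to 452 CPM in the others. In the high-numbered set, Pgap2 was at 5.94 CPM in library 12, against 4.75 to 5.19 CPM in the others. Creld2 was at 11.3 CPM in library 15, against 7.82 to 9.04 CPM. P4ha1 was at 52.5 CPM in library 9, below the 58.1 to 62.3 CPM of the others.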

How the results depend on the processing

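The count of genes called between the number sets was 0 with edgeR as reported. It stayed at 0 with RLE scaling and with the library number as a continuous term. Limma-trend on the deposited variance-stabilized values called 0 for the number sets and 0 for the stimulation terms. The count between the number sets differed from 0 in the fits that follow. It was 124 with DESeq2 (8653 genes without an adjusted p), 588 with limma-voom weights, 111 with no filter on low counts, 3 with the nuclear-retained RNA level as a covariate (Hivep3, Igsf9b and C1ql2) and 1 within cTBS libraries, an identifier with no symbol. It was also 1, Hivep3, with library totals only, with a stricter filter (at least 1 CPM in 7 libraries) and without iTBS 1, so that leaving out single libraries gave 0 to 1. Of the 111 genes called with no filter, 37 were called by DESeq2. For the stimulation terms the count was 0 as reported, 112 with DESeq2, 9747 with limma-voom weights, 1904 with no filter, 2 with the nuclear-retained level, 1 with that and the striatal level, and 0 whichever single library was left out. The interaction count was 632 with no filter and 0 whichever single library was left out. The cause of these differences was not tested.

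Leaving out single libraries, the list medians ran from 0.32 to 0.45 for immediate early, 0.19 to 0.29 for late, 0.14 to 0.22 for glucocorticoid-induced and -0.83 to -0.47 for striatal genes, and the immediate early count at unadjusted p under 0.05 from 15 to 20. That count was 12 with the striatal level as a covariate and 11 with the library number as a continuous term plus that level. It was 14 with library 8 counted as low-numbered. Over all genes tested, 628, 543 and 1012 were higher in these fits, against 1045 as reported. By construction the striatal median went to -0.025 with the striatal level as a covariate, where Drd2 had 0.17, Penk 0.017 and Adora2a 0.046. With the nuclear-retained level added it was -0.020, with Drd2 at 0.19 and Adora2a at 0.023. With the continuous number and the striatal level it was -0.031, with Drd2 at 0.12 and Penk at 0.043. With the GC trend removed and the striatal level it was -0.024, with Drd2 at 0.16, Penk at 0.014 and Adora2a at 0.047. Within iTBS libraries the late median was 0.071, Jun had -0.0073, Btg2 0.0073 and Fkbp5 -0.017. Within cTBS libraries Jun had -0.068, and within sham libraries Npas4 had -0.052, Sgk1 -0.016 and Dbp 0.36. With the GC trend removed CT030661.1 had 0.013.

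For library measures, leaving out single libraries gave differences from -0.128 to 0.197 in log2 total counts (-0.0392 without sham 3), -0.584 to -0.307 percentage points in the mitochondrial share (exact permutation p = 0.025 without iTBS 4), -0.991 to -0.711 in the share of the top 10 genes and -994 to -443 detected genes. No paired analysis was possible for the number sets because they share only replicate number 3; with a replicate block in place of the number set, 0 genes were called for stimulation, with 2490 at unadjusted p under 0.05. Depth limits low genes such as Ngfr, Maff and Atf3. Alternatives chosen after seeing the data were the fits without libraries 6, 12 and 15, with the continuous number and the striatal level, and with the GC trend removed.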

Other observations

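Other genes whose number sets did not overlap, named after their values were seen, were moderately or highly abundant, and none passed the adjustment. Igf1r, the receptor gene of insulin-like growth factors, averaged 179 ± 11.7 CPM in high-numbered and 153 ± 12.9 CPM in low-numbered libraries (SD, n = 7 each; log2 fold change 0.23 ± 0.06, SE). Tnrc6b, a partner of Argonaute proteins in silencing by microRNAs, averaged 257 ± 10.97 CPM in high-numbered and 226 ± 16.1 CPM in low-numbered libraries (0.18 ± 0.05). Maml3, a coactivator of Notch, averaged 25.6 ± 1.41 CPM in high-numbered and 22.1 ± 1.65 CPM in low-numbered libraries, and Bicra, a subunit of a chromatin remodelling complex, averaged 33.1 ± 1.63 CPM in high-numbered and 26.7 ± 3.11 CPM in low-numbered libraries. On the lower side, March7, a ubiquitin ligase gene, averaged 50.2 ± 3.13 CPM in high-numbered and 57.5 ± 2.24 CPM in low-numbered libraries (-0.20 ± 0.05), and Strn3, a striatin of phosphatase complexes, averaged 82.0 ± 2.85 CPM in high-numbered and 89.1 ± 3.50 CPM in low-numbered libraries (-0.12 ± 0.04).

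Unadjusted interaction p-values under 0.05 concern a difference between number sets that varied with stimulation. They were found in 6 of 31 nuclear-encoded respiratory chain genes and 4 of 18 endoplasmic reticulum stress genes, against 3.86% of all genes tested. They were also found in 3 of 12 meningeal fibroblast, 2 of 7 hippocampal and 3 of 23 cholesterol synthesis genes. Many other lists had 0, among them the striatal and cytosolic ribosomal protein lists. None of these passed the adjustment.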
